A study of Mus musculus with 22 samples.

Results

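Endothelial cells line blood and lymph vessels, and their identity and growth signals are carried by a small set of surface proteins. The 10 genes described here, of 46882 genes listed in the table of wild-type and RAG1-/- samples, were taken by name, for their part in endothelium and angiogenesis. Pecam1 (CD31), Cdh5 (VE-cadherin) and Emcn (endomucin) mark the endothelial cell surface and its junctions. Kdr (VEGFR-2), Flt1 (VEGFR-1) and Flt4 (VEGFR-3) are the receptors of the vascular endothelial growth factors (VEGFs). Tek (TIE2) is the receptor of the angiopoietins, and Angpt2 is the angiopoietin that activated endothelium itself releases. Eng (endoglin) is a co-receptor of the TGF-beta family, and Vwf (von Willebrand factor) is the clotting protein that endothelial cells store.

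In sprouting angiogenesis, VEGF binds KDR and drives tip cells forward, while FLT1 binds the same ligand and acts largely as a decoy, in membrane and soluble forms that are summed in a gene count. FLT4 with its ligand VEGF-C is best known for lymphatic growth and is also found on tip cells. ANGPT1 from mural cells keeps vessels quiet through TEK, and ANGPT2 opposes it in remodelling vessels. Tumors that grow beyond the reach of diffusion recruit vessels of the host, so in a transplanted tumor such transcripts can come from the host.

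RNA was measured as 3′ tags in 16 libraries of mouse material. Hosts were 8 to 12 weeks old where an age is given, which the study's methods state as the age at injection. Host age at sampling therefore differed with the day on which a tumor was taken. MC38, a line from a chemically induced colon adenocarcinoma of a C57BL/6 mouse, was sampled before injection (day 0, 2 libraries), and normal skin of wild-type C57BL/6N mice was sampled at day 23 (2 libraries). MC38 tumors grown under the skin of wild-type C57BL/6N mice were taken at day 23 and day 46, and tumors of B6.129S7-Rag1tm1Mom/J hosts, labelled RAG1-/- and lacking mature T and B cells, at day 13 and day 23, with 3 libraries per group. The values are normalized counts, the reads of a gene divided by the size factor of the library, and tags of 1 gene cannot be set against those of another as amounts.

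Libraries held 5589151 to 26134241 reads on genes, and 3 reads, taken as the floor, stood at 1.33 to 6.38 normalized counts. Rag1 reads were few and were not lower under the RAG1-/- label, at 1 to 12 in those 6 libraries and 0 or 1 in the 6 wild-type tumors. Whether the counted 3′ end lies in the deleted part was not checked here, so these reads do not decide on the label. Lymphocyte genes followed the label. Igkc, the immunoglobulin kappa constant region, was at 50.7 to 287 normalized counts in wild-type tumors and at 0 to 1.77 in those labelled RAG1-/-. Cd8a was at 5.86 to 79.7 and 0 to 0.442, and Cd3e at 3.91 to 23.2 and 0. All 3 were called over both days, at a limma adjusted p of 7.60e-07, 5.83e-04 and 0.00543. The epithelial genes Epcam, Krt8, Krt18 and Cdh1 summed to 4.28 and 5.87 normalized counts in the MC38 libraries, to 9.51 to 57.7 in tumors and to 4635 and 6161 in skin, so the line carried few tags of these genes. The keratin genes Krt5, Krt14, Krt10 and Krt1 summed to 308 and 310 in the MC38 libraries, to 227 to 1617 in tumors and to 239749 and 243077 in skin. The skeletal muscle genes Acta1, Ckm, Myh4 and Tnnt3 summed to 80299 and 114811 normalized counts in skin and to 7214 and 7013 in replicates 1 and 3 of the day-13 tumors labelled RAG1-/-, against 20.5 to 954 in the other tumors. The study's methods give 1 piece of each excised tumor to RNA and speak of biological replicates. For skin and MC38 cells no source used here says whether the libraries come from separate animals or cultures, and there the spread may be technical.

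The genes lie on 7 chromosomes of GRCm38 (GENCODE M21): Kdr at chr5:75932827-75978458 (minus strand), Flt1 at chr5:147561604-147726011 (minus), Flt4 at chr11:49609263-49652739 (plus) and Tek at chr4:94739289-94874976 (plus). Pecam1 lies at chr11:106654217-106750628 (minus), Cdh5 at chr8:104101625-104144511 (plus), Emcn at chr3:137341067-137432185 (plus), Angpt2 at chr8:18690263-18741562 (minus), Eng at chr2:32646595-32682669 (plus) and Vwf at chr6:125546774-125686679 (plus). All 10 are protein coding. For 9 of them no exon of another gene overlapped their exons, and for Eng 12.2% of the last 500 exonic bases lay opposite an exon of Fpgs, whose reads could be counted there if strand was ignored.

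Many endothelial promoters are known to be bound by ETS factors, whose core letters are GGAA. Promoters of 6 of the 10 genes were found in the RefSeq table (GRCm38.p6). Among these genes, Kdr, Flt1, Tek, Emcn and Flt4 had no or few reads in MC38 cells and were higher in tumors. The promoters of Kdr, Flt1, Tek and Emcn are shown as examples. Each is given as the 250 bases before the RefSeq start, with GGAA or its reverse complement TTCC in capitals.
Kdr, chr5:75978456-75978705, minus strand: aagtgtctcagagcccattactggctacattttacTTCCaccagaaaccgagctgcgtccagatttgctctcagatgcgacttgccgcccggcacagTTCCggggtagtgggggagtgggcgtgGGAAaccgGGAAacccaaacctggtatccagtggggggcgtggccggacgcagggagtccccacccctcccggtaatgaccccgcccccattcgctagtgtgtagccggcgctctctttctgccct
Flt1, chr5:147726012-147726261, minus strand: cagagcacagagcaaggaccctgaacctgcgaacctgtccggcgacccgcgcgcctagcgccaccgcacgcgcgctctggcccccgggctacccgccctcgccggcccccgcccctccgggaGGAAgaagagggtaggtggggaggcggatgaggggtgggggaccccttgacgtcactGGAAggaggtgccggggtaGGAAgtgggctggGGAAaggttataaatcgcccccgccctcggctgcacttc
Tek, chr4:94739039-94739288, plus strand: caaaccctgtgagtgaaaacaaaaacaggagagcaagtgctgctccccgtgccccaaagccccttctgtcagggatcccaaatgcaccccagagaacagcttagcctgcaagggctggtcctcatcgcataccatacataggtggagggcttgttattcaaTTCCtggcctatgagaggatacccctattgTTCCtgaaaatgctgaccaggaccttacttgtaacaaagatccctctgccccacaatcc
Emcn, chr3:137340828-137341077, plus strand: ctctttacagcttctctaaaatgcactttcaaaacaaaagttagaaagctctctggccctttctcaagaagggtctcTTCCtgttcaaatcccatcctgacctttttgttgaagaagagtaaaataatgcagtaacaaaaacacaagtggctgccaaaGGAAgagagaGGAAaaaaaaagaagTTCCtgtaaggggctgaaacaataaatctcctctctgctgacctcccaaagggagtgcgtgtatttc

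GGAA on either strand was found in all 6 promoters, with 4 matches each in Kdr, Flt1 and Emcn, 3 in Eng and 2 each in Tek and Flt4. These 4 letters are common, and 93.4% of 32851 promoter windows of the same length held them, so the match does not set these genes apart. The Sp1 box GGGCGG, with its reverse complement, was found 3 times in Flt1 and Flt4, 2 times in Kdr and not in Tek, Eng or Emcn, against 32.7% of all windows. Neither the GATA letters GATAA (22.6% of windows) nor the hypoxia response core ACGTG (16.6%) was in any of the 6 windows.

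MC38 cells against tumors sets the line before injection against whole tumors, which hold host cells too. Transcripts of host cells and genes that the tumor cells themselves raise in the host cannot be told apart in bulk RNA. All 10 genes were higher in the tumors, and MC38 cells before injection held no read of Kdr, Flt4, Tek, Angpt2, Vwf or Emcn. Differences were tested with limma on log2(normalized count + 1), two-sided, and p-values were adjusted by Benjamini-Hochberg over every gene whose mean reached 5 normalized counts. It called all 10 at an adjusted p of 9.82e-12 to 0.00297, where 18.2% of 14708 genes were called higher. In each of the 10 genes every tumor lay above both MC38 libraries, which held for 16.1% of the genes tested. The exact permutation p of each was 0.022, two-sided, the smallest that 12 against 2 libraries can give.

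**Figure D1:**
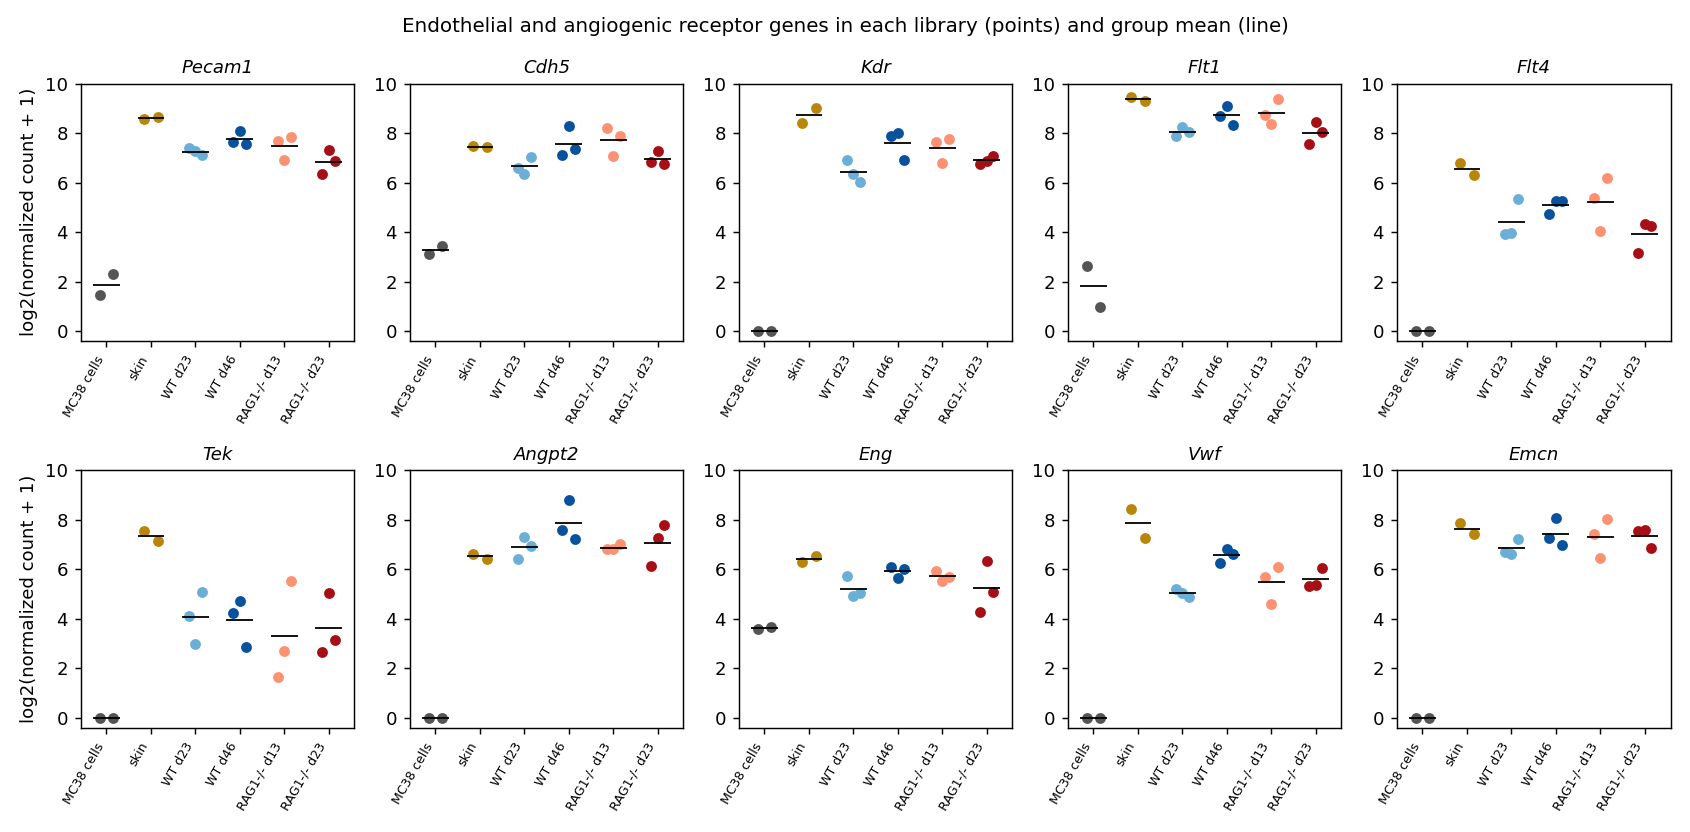
Level of each of the 10 endothelial genes in each of the 16 libraries, as log2(normalized count + 1) on the vertical axis; points are libraries, black lines are group means, and d13 to d46 are days after injection. MC38 cells sit at 0 for 6 genes, and both skin libraries lie above all 12 tumors for Pecam1, Kdr, Flt4, Tek and Vwf.

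Against the floor of 3 reads, tumors were at least 50.1-fold above MC38 cells for Kdr, 55.4-fold for Angpt2, 54.3-fold for Emcn, 19.0-fold for Vwf, 9.71-fold for Flt4 and 5.80-fold for Tek, with the floor at 2.93 normalized counts, the larger of the values in the MC38 libraries. The bounds for Tek and Flt4 are low because these genes gave few tags in the tumors, 2 to 48 reads a library for Tek and 6 to 76 for Flt4. The other 4 genes had some reads in MC38 cells. Flt1 had 6 and 1 reads there and was 112-fold higher in tumors, with an exact Poisson 95% interval of 54.5 to 279. Its log2 difference, 6.60 in the fit, was 7.42 without MC38 replicate 1 and 5.79 without replicate 2. Pecam1 had 2 and 4 reads and a ratio of 61.4 (28.2 to 167), and its log2 difference of 5.46 was 5.04 and 5.89 without either. Cdh5, the junctional cadherin, had 9 and 10 reads and a ratio of 18.9 (12.1 to 31.3). These intervals cover counting error only.

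Eng stood apart from the other receptors in MC38 cells. It gave 13 and 12 reads there, 11.1 and 11.7 normalized counts, and the tumors lay only 4.24-fold higher (2.87 to 6.55). The share of these tags that comes from the Fpgs strand cannot be told apart here, since the strand setting of the counting is not given in the sources used here. In skin, the 10 genes were likewise all above MC38 cells, with 10 called where 41.2% of 16780 genes were called higher in skin, and Flt1 lost its call when either skin library was left out (-7.49 and -7.65 against -7.57, adjusted p = 0.069 and 0.066).

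Of 18 further endothelial genes, 17 were higher in tumors and 12 had no read in either MC38 library. The gene not called was Cd34, the vascular and progenitor sialomucin, at 5151 ± 197 normalized counts in MC38 cells (SD, n = 2) and 4123 ± 827 in tumors (SD, n = 12). Egfl7 at 48.3 ± 0.613 and Ecscr at 30.9 ± 2.25 were also read in MC38 cells (SD, n = 2). The line itself carried growth factor tags: Vegfa stood at 934 ± 85.0 and Vegfc at 731 ± 248 normalized counts in MC38 cells (SD, n = 2).

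Skin is the normal tissue of the table, and tumors against skin shows which endothelial genes a tumor carries more or less of than a resting tissue. Of the 10 genes, 6 were lower in tumors, namely Tek, Vwf, Flt4, Kdr, Pecam1 and Flt1, and none passed the test in the other direction. Lower calls were common in this comparison, at 36.3% of 16259 genes (24.4% were called higher), and the median log2 difference was -1.13 over the 10 genes and -0.19 over all genes tested. Fewer endothelial cells and less RNA of a gene per endothelial cell cannot be told apart in bulk tissue. Skin also differed in make-up: its skeletal muscle, keratinocyte and fibroblast lists summed to at least 80299, 239749 and 232325 normalized counts, against highest tumor sums of 7214, 1617 and 35029.9, and the part of this in the results was not tested.

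Tek, the angiopoietin receptor, differed most. Its level was 189 and 142 normalized counts in the skin libraries. In wild-type tumors it was 16.2, 6.82 and 33.3 at day 23 and 17.6, 25.5 and 6.28 at day 46, and in tumors labelled RAG1-/- 2.14, 5.56 and 45.7 at day 13 and 5.24, 31.9 and 7.95 at day 23. No tumor came near either skin library, and within the tumors Tek spread more than any other of the 10 genes relative to its mean of 17.0 ± 14.1 (SD, n = 12). The difference was -3.63 ± 0.86 on the log2 scale (SE, limma adjusted p = 0.00219), a 12.4-fold lower level.

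Vwf, stored in the Weibel-Palade bodies of endothelial cells and also made by megakaryocytes, was at 347 and 154 normalized counts in skin. Tumor values ran from 23.3 to 111 with a median of 45.9, all below the lower skin library. The log2 difference was -2.19 ± 0.39 (limma adjusted p = 2.30e-04). The platelet and megakaryocyte list of Pf4, Ppbp, Itga2b, Gp1bb and Gp9 summed to 940.4 and 1308 normalized counts in skin and to 659 to 2140 in tumors, so the sums overlapped between the groups where Vwf did not. Of the 4 genes tested Itga2b (-1.87 ± 0.61) and Gp1bb (-0.99 ± 0.41) were lower in tumors, as Vwf was, and Pf4 and Ppbp were not called. The part of these cells in the Vwf values was not tested.

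All 3 VEGF receptors were lower in tumors. Kdr, the main signalling receptor, stood at 343 and 519 normalized counts in skin and at 63.4 to 256 in tumors (median 120.0), with a log2 difference of -1.64 ± 0.32 (limma adjusted p = 5.32e-04). Flt4 stood at 109.8 and 77.8 in skin and at 7.86 to 72.4 in tumors (median 22.3), with a difference of -1.89 ± 0.54 (limma adjusted p = 0.00694). Both genes had no overlap between tumors and skin, which with Tek, Vwf and Pecam1 held for 5 of the 10 and, with tumors lower, for 32.6% of all genes tested, although the day-13 tumor labelled RAG1-/- with the highest Flt4 lay just under the lower skin library. Without skin replicate 1, the Flt4 difference was -1.65 and its call was lost (adjusted p = 0.098).

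Flt1 moved less and less surely. It was read at 699 and 625 normalized counts in skin and at 188.5 to 667 in tumors (median 324), with 1 tumor above the lower skin library. The log2 difference was -0.97 ± 0.26 (limma adjusted p = 0.00491). The call was lost without skin replicate 1 (adjusted p = 0.077) and when libraries were rescaled to the same total (log2 difference -0.57, adjusted p = 0.062).

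Of the junction and surface markers, Pecam1 was called lower and Cdh5 and Emcn were not called, and the difference between them was not tested. Pecam1, also carried by leukocytes and platelets, was at 382 and 407 normalized counts in skin and at 79.9 to 271 in tumors (median 162), a log2 difference of -1.29 ± 0.27 (limma adjusted p = 7.36e-04). Cdh5, which is more restricted to endothelium, was at 175 and 172 in skin and at 81.0 to 313 in tumors (median 136), with a difference of -0.22 ± 0.32 (limma adjusted p = 0.583). Emcn was at 232 and 172 in skin and at 86.7 to 269 in tumors (median 150.4), with -0.42 ± 0.36 (limma adjusted p = 0.338). For Cdh5 and Emcn both skin libraries lay inside the range of the tumors, and the sign for Cdh5 turned when libraries were rescaled to the upper quartile (0.09) or the total (0.18).

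The leukocyte list of Ptprc, Itgam, Cd68, Adgre1, Csf1r and Lyz2 summed to 8931 to 16462 normalized counts in tumors and to 7247 and 7753 in skin. Of its 6 genes, Itgam, Adgre1 and Lyz2 were called higher in tumors and the other 3 were not called. The part of leukocytes in the Pecam1 values was not tested.

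Angpt2 was the 1 gene of the 10 with a higher mean in tumors. It was at 97.8 and 84.1 normalized counts in skin, and wild-type tumors held 84.8, 158 and 120.4 at day 23 and 194, 448 and 150.1 at day 46. Tumors labelled RAG1-/- gave 111, 111 and 129 at day 13 and 69.4, 153 and 220.1 at day 23. Of the 12 tumors, 10 lay above both skin libraries, and the highest was wild-type day 46 replicate 2. The log2 difference of 0.66 ± 0.40 did not pass the test (limma adjusted p = 0.171), and it passed when libraries were rescaled to the same total (1.06, adjusted p = 0.031).

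Eng was at 77.7 and 91.8 normalized counts in skin and at 18.3 to 80.9 in tumors (median 49.8). A single tumor, labelled RAG1-/- day 23 replicate 2, lay above the lower skin library. The log2 difference was -0.89 ± 0.42 (limma adjusted p = 0.082), and without that tumor the gene was called lower (-1.03, adjusted p = 0.015).

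The scale sets part of these counts. Over all genes, 3968 were called higher and 5898 lower in tumors as deposited, 5357 and 4791 after rescaling to the upper quartile, and 5763 and 4445 after rescaling to the total, where the median of all genes moved from -0.19 to 0.20. Without the 2 day-13 tumors rich in muscle tags, again 6 of the 10 genes were called lower and 10 were called higher than in MC38 cells.

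**Figure D2:**
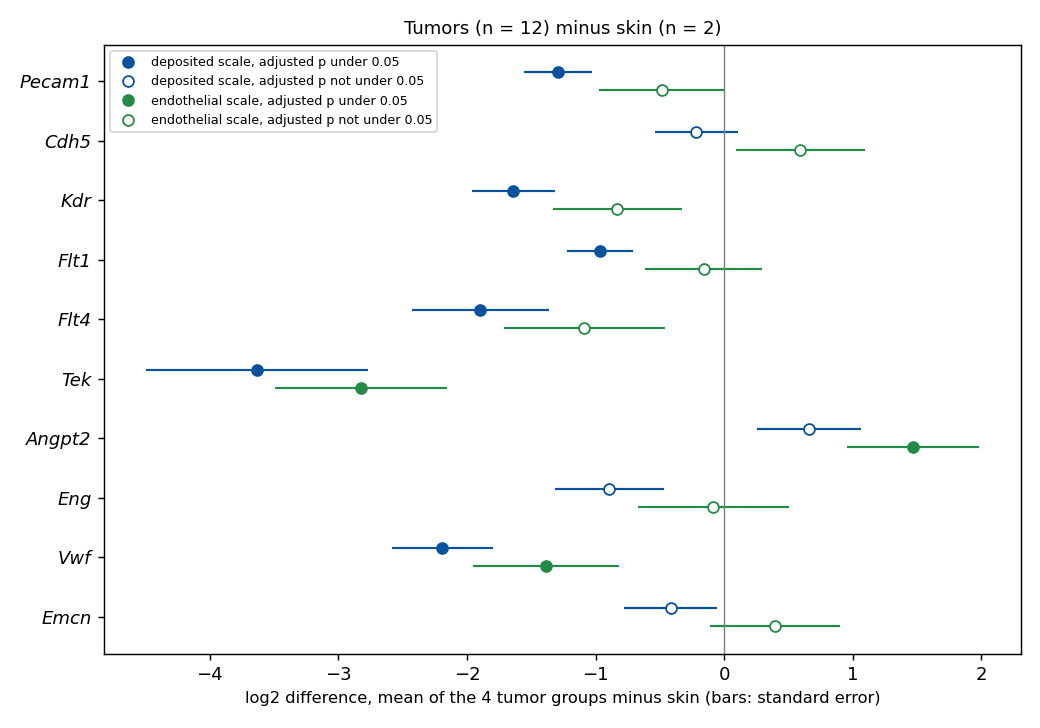
Log2 difference of the 10 genes between 12 tumors and 2 skin libraries, on the deposited scale (blue) and after subtracting the mean of 18 endothelial reference genes (green); points are limma estimates, bars are standard errors, and filled points passed an adjusted p of 0.05. Tek and Vwf lie left of 0 on both scales, and Angpt2 lies right of 0 on both and is filled on the endothelial scale only. The p-values behind the green points tend to be too small, since all genes share the error of the reference.

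To set the genes against the endothelial signal of each library, the mean log2 level of 18 other endothelial genes, among them Cldn5, Esam, Tie1, Robo4, Icam2 and Plvap, was subtracted. That mean was 7.12 and 6.68 in skin and 5.16 to 7.05 in tumors. On this scale Tek (-2.83 ± 0.67, limma adjusted p = 1.29e-04) and Vwf (-1.38 ± 0.57, adjusted p = 0.032) were lower in tumors and Angpt2 was higher (1.47 ± 0.51, adjusted p = 0.011). The median over all genes was 0.62, with 33.8% of genes called higher and 18.9% lower. The same reference value is subtracted from every gene of a library, so all genes share its error. The limma p-values do not take this into account and tend to be too small on this scale. For Tek the unadjusted limma p was 3.09e-05 here and 8.79e-04 on the deposited scale, at similar ratios of difference to SE. Calls on the endothelial scale are therefore less sure than their p-values state.

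The other 7 genes were not called against the endothelial reference. Kdr had -0.83 ± 0.50, Flt4 -1.09 ± 0.63 and Pecam1 -0.48 ± 0.49, and Flt1, Eng, Emcn and Cdh5 lay between -0.16 and 0.59. The Vwf call was lost with 9 of the reference genes (adjusted p = 0.130) and without Cd34, Egfl7 and Ecscr (adjusted p = 0.127). With either skin library left out, Tek was the 1 gene still called, and Angpt2 had 1.36 (adjusted p = 0.143) without replicate 1 and 1.58 (0.064) without replicate 2, a difference about as large as with both. Whether the difference between Angpt2 and Tek on this scale was itself past a threshold was not tested.

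**Figure D3:**
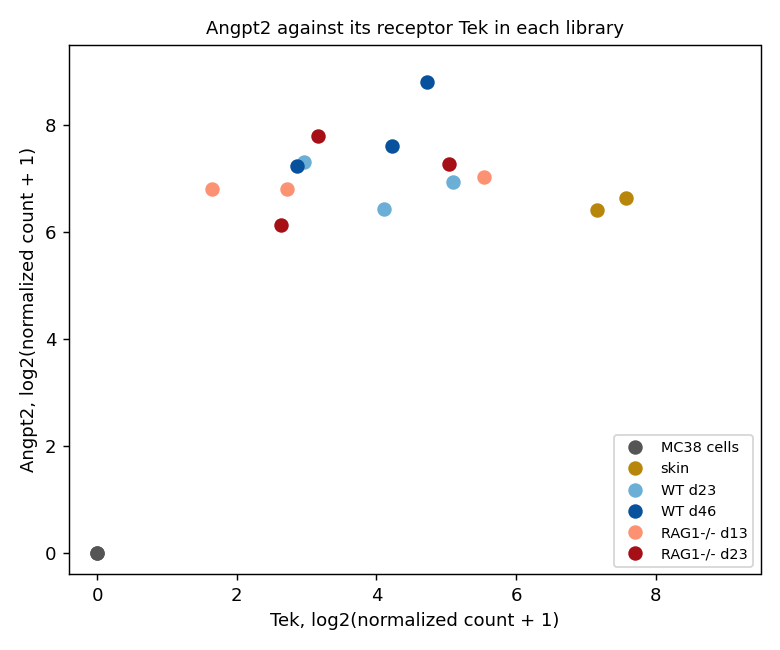
Angpt2 (vertical) against Tek (horizontal) in each of the 16 libraries, both as log2(normalized count + 1); colours mark the groups. Both MC38 libraries sit at 0 for both genes, both skin libraries lie at high Tek, and all 12 tumors lie to their left at similar or higher Angpt2.

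The ratio of the antagonist to its receptor was chosen after the values were seen and carries no test. Angpt2 over Tek was 0.518 and 0.595 in skin and 2.81 to 52.0 in tumors, with a median of 15.4. Every tumor had a ratio above that of skin, from the lowest, labelled RAG1-/- day 13 replicate 3, to the highest, replicate 1 of the same group, where Tek rested on 2 reads. Tag counts of 2 genes do not give a ratio of molecules, so only the difference between libraries can be read.

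Partners of the receptors were described from lists of the pathway. Of 7 VEGF ligands and co-receptors, 3 were higher in tumors than in skin and 1 was lower. Vegfa, the main ligand of KDR, was at 1557 ± 343 normalized counts in tumors (SD, n = 12) and 418 ± 179 in skin (SD, n = 2), a log2 difference of 1.93 ± 0.23 (limma adjusted p = 6.25e-06). Vegfc, the ligand of FLT4, was at 625 ± 185 in tumors and 42.0 ± 27.2 in skin, a difference of 3.96 ± 0.37 (limma adjusted p = 4.48e-07). The co-receptor Nrp2 was higher (0.96 ± 0.17) and Nrp1 lower (-1.32 ± 0.33), while Vegfb, Figf (VEGF-D) and Pgf did not pass the test. Both ligand genes were higher in tumors where their receptor genes Kdr and Flt4 were lower, and MC38 cells alone held Vegfa and Vegfc tags at the levels given above.

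Of 4 further genes of the angiopoietin pathway, only Ptprb (VE-PTP), the phosphatase that restrains TEK, was called, and it was lower in tumors (-2.12 ± 0.46, limma adjusted p = 0.00117). Tie1, the orphan partner of TEK, had -1.44 ± 0.67 (adjusted p = 0.076). Angpt1, the agonist made by mural cells, was at 54.1 ± 29.8 normalized counts in tumors (SD, n = 12) and 46.1 ± 14.1 in skin (SD, n = 2), with a log2 difference of 0.03 ± 0.57 (adjusted p = 0.965).

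In the Notch pathway, which selects tip from stalk cells, 1 of 9 genes was higher and 5 were lower in tumors. Notch4, the endothelial Notch receptor, was at 174.5 ± 91.7 normalized counts in tumors (SD, n = 12) and 46.9 ± 28.4 in skin (SD, n = 2), a log2 difference of 1.88 ± 0.38 (limma adjusted p = 7.10e-04). Notch1 (-3.34), Jag2 (-4.78), Dll1 (-3.56), Hes1 (-2.37) and Hey1 (-1.89) were lower on the log2 scale. Keratinocytes also carry Notch1, Jag2, Dll1 and Hes1, and the keratinocyte list was 4 of 4 lower. The part of keratinocytes in these Notch differences was not tested. Dll4, the tip cell ligand, had 0.79 ± 0.49 on the deposited scale (adjusted p = 0.181) and 1.60 ± 0.60 on the endothelial scale (adjusted p = 0.019). The limit given above for p-values on the endothelial scale holds for Dll4 too.

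**Figure D4:**
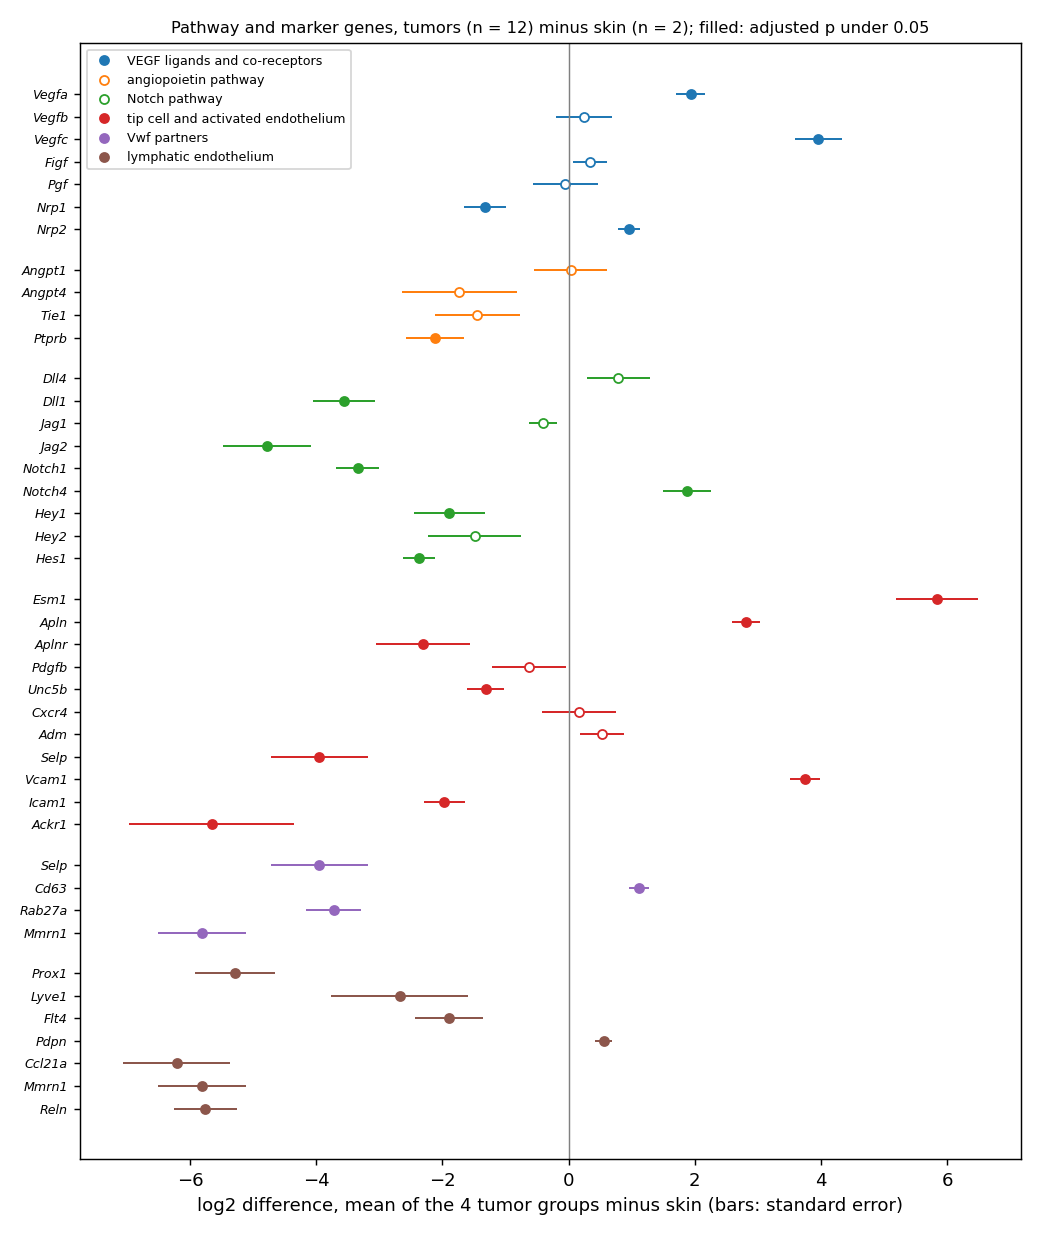
Log2 difference between 12 tumors and 2 skin libraries for genes of 6 lists that surround the 10 genes; points are limma estimates, bars are standard errors, colours mark the lists, and filled points passed an adjusted p of 0.05. Esm1, Vegfc and Vcam1 lie farthest right and Ccl21a, Mmrn1, Reln and Ackr1 farthest left.

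Among genes of tip cells and activated endothelium, 3 of 11 tested were higher and 5 lower. Esm1 (endocan), a marker of tip cells, was at 93.4 to 549 normalized counts in tumors, at 0 and 9.38 in skin and at 0 in MC38 cells. Its log2 difference from skin was 5.84 ± 0.65 (limma adjusted p = 2.67e-06). Apln, the tip cell peptide, was higher by 2.81 ± 0.22 and its receptor Aplnr lower (-2.30 ± 0.75), although Apln also stood at 93.8 and 106 normalized counts in MC38 cells. Vcam1 was higher (3.75 ± 0.24) and stood at 1030.0 ± 51.8 in MC38 cells.

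Other genes of leukocyte capture were lower. Selp (P-selectin), which shares the Weibel-Palade bodies with VWF, was at 102 ± 15.8 normalized counts in skin (SD, n = 2) and 7.49 ± 5.49 in tumors (SD, n = 12), a log2 difference of -3.95 ± 0.77 (limma adjusted p = 4.68e-04). Ackr1, a marker of venules, was lower (-5.66 ± 1.31, adjusted p = 0.00179). Sele (E-selectin) had 35 reads in skin and none in any of the 12 tumors, and was too low for the test. Of 4 tested partners of VWF, Selp, Rab27a and Mmrn1 were lower and Cd63, a general lysosomal protein, was higher (1.12 ± 0.16).

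Lymphatic endothelium is the other home of Flt4. Prox1, the transcription factor that defines it, was at 141 ± 53.0 normalized counts in skin (SD, n = 2), at 0 to 15.5 in tumors and at 0 in MC38 cells, a log2 difference of -5.29 ± 0.64 (limma adjusted p = 5.91e-06). Of 7 lymphatic genes 6 were lower in tumors, namely Flt4 itself, Prox1, Lyve1, Ccl21a, Mmrn1 and Reln, with a median of -5.29 over the list. Pdpn was higher (0.55 ± 0.14) and stood at 1574 and 1585 normalized counts in MC38 cells, and Pdpn made up most of the summed level of this list in tumors. Flt4 fell by less than 5 of the other lymphatic genes in these estimates, and that difference was not tested.

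Of 10 genes of the TGF-beta and BMP9 arm that acts with endoglin, 7 were lower and 2 higher in tumors. Acvrl1 (ALK1), the type I receptor that pairs with ENG, was lower (-1.34 ± 0.26, limma adjusted p = 4.81e-04), and its target Id1 was lower (-3.52 ± 0.38, adjusted p = 2.12e-06), while Tgfbr1 (0.69 ± 0.17) and Smad7 (1.05 ± 0.17) were higher. Of 10 transcription factors of endothelium, 7 were lower, among them Sox7 (-4.12 ± 0.57) and Sox17 (-2.41 ± 0.65), and Ets1 and Gata2, which are read in other cells too, were higher. Both Ets1 and Gata2 were also called higher in MC38 cells than in skin, as 3482 of 16780 genes were. Neither was called higher in tumors than in MC38 cells. Of 10 pericyte and smooth muscle genes, 6 were lower in tumors than in skin, where 36.3% of all genes were, and none was higher. The 6 were Rgs5, Notch3, Abcc9, Acta2, Myh11 and Des, of which Acta2, Myh11 and Des are also known from other muscle, and Pdgfrb, Cspg4, Kcnj8 and Mcam were not called. The list had summed levels of 737 to 3792 normalized counts in tumors and 8414 and 10151 in skin.

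Among the tumors, the first question is whether endothelial genes change as tumors grow. In wild-type hosts the log2 difference of day 46 minus day 23 was above 0 for 9 of the 10 genes, with a median of 0.69 against 0.00 over all genes tested. None passed the test, and limma called 0 of 14746 genes in this comparison (1261 at an unadjusted p under 0.05), edgeR 0 and DESeq2 41, none of them among the 10 genes. The values did not overlap between the days for Vwf, Kdr, Cdh5, Pecam1 and Flt1, 5 of 10 genes, where 7.02% of all genes tested had no overlap with day 46 higher.

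Vwf showed the clearest separation. It was at 36.1, 32.4 and 28.5 normalized counts at day 23 and at 76.2, 111 and 97.3 at day 46, a log2 difference of 1.51 ± 0.39 (limma adjusted p = 0.385). Kdr was at 119, 81.0 and 63.4 at day 23 and at 237, 256 and 120.5 at day 46 (1.18 ± 0.34, adjusted p = 0.385), and its groups lay apart by very little. Angpt2 had 1.00 ± 0.42 (adjusted p = 0.548) and Cdh5 0.91 ± 0.34 (adjusted p = 0.499). Tek was the exception, with -0.12 ± 0.93.

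Wild-type day 46 replicate 2 was the highest of the 12 tumors for 6 of the 10 genes, and without it the day-46 differences stayed above 0 for the 9 genes. In that group the mural list also stood higher, at 2300 to 3792 normalized counts against 1116 to 1945 at day 23, and Esm1 had 1.35 ± 0.43 (adjusted p = 0.444). The red cell list of Hba-a1, Hba-a2, Hbb-bs and Hbb-bt summed to 1397, 10181 and 50895 normalized counts at day 46 and to 1120 to 2549 at day 23, and in tumors labelled RAG1-/- to 4028 to 9521 at day 23 and to 1572 to 1895 at day 13, with none of its genes called. The part of these lists in the endothelial values was not tested.

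In tumors labelled RAG1-/- the log2 difference of day 23 minus day 13 was below 0 for 6 of the 10 genes, with a median of -0.48, and none passed the test. In this comparison limma called 0 of 14746 genes (1722 at an unadjusted p under 0.05), edgeR 0 and DESeq2 206, none of them among the 10 genes. Flt4 had -1.30 ± 0.57 (limma adjusted p = 0.395), Flt1 -0.81 ± 0.28 (0.287), Cdh5 -0.78 ± 0.34 (0.389) and Pecam1 -0.65 ± 0.29 (0.409). Cdh5 was at 298, 136 and 238.2 normalized counts at day 13 and at 113, 155 and 107 at day 23, and the groups overlapped, as they did for all 10 genes, where 9.48% of all genes tested lay clear with day 23 higher and 9.92% with day 23 lower.

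The 2 day-13 tumors with the high values are those rich in skeletal muscle tags. Replicates 1 and 3 lay above replicate 2 for every gene of the 10 except Tek in replicate 1 (for Angpt2, replicates 1 and 2 were both at 111), and replicate 3 was the highest of all 12 tumors for 3 genes. Without both, 1 day-13 library is left, and the 10 differences ran from -0.34 to 0.98 with a median of 0.02, where Kdr turned from -0.49 to 0.13. The lone library is then assumed to vary like the other groups. The part of the muscle signal in the endothelial values was not tested.

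The difference between the genotypes in this late-minus-early step was above 0 for 9 of the 10 genes, with a median of 1.29 on the log2 scale and values of 1.98 ± 0.81 for Flt4, 1.70 ± 0.48 for Cdh5 and 1.67 ± 0.48 for Kdr. At an unadjusted p under 0.05 were 6 genes, and none passed the adjusted test (lowest limma adjusted p = 0.395). Limma called 0 of 14746 genes (1279 at an unadjusted p under 0.05), edgeR 0 and DESeq2 58, none of them among the 10. The intervals of time also differ, 23 days in wild-type and 10 days in RAG1-/- hosts, so genotype and time cannot be told apart. Without the 2 muscle-rich tumors the median was 0.78 and Emcn turned to -0.28.

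**Figure D5:**
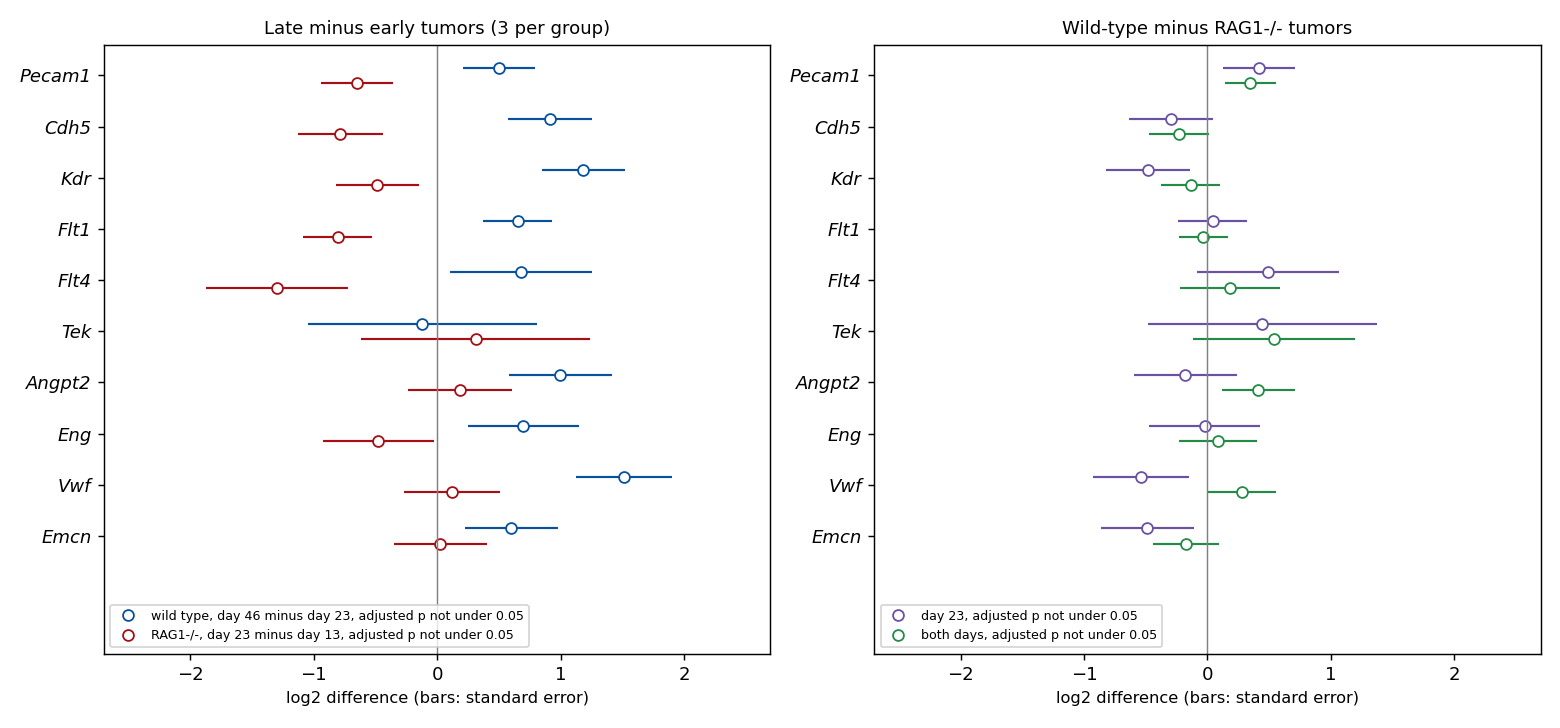
Log2 differences of the 10 genes among the tumor groups, late minus early within each genotype (left) and wild type minus the tumors labelled RAG1-/- (right); points are limma estimates and bars standard errors. Open points did not pass an adjusted p of 0.05, which holds for all 40 shown.

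The last question is whether hosts without T and B cells grow tumors with another endothelial content. At day 23, the 1 day both genotypes share, wild-type minus RAG1-/- labelled tumors gave 10 differences that ran from -0.54 to 0.49 on the log2 scale, and none passed the test, where 0.278% of 14746 genes did. Flt1 was at 237, 303 and 261 normalized counts in wild-type tumors and at 188.5, 345 and 265 in the others, with a difference of 0.04 ± 0.28. The lower Vwf of wild-type tumors, 28.5 to 36.1 against 39.3 to 65.8, was the 1 gene without overlap (-0.54 ± 0.39, limma adjusted p = 0.644), where 7.62% of genes tested had no overlap with wild type lower.

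The contrast over both days sets wild-type tumors of days 23 and 46 against those labelled RAG1-/- of days 13 and 23, so genotype and tumor age cannot be told apart in it. Its differences ran from -0.23 for Cdh5 to 0.54 for Tek, again with none called against 0.712% of all genes. The standard errors were 0.20 to 0.66, and the exact permutation p of each gene, two-sided over 6 against 6 tumors, was 0.232 to 0.905. Without the 2 muscle-rich day-13 tumors, a choice made after seeing the data, all 10 differences lay above 0. They ran from 0.09 to 0.83 with a median of 0.35, so the mixed signs depend on those tumors. With all tumors kept, and after subtracting the endothelial reference, none of the 10 was called at day 23 or over both days (background 0.488% and 0.543%). Of the lists that surround the 10 genes, with mural cells, 3 genes were higher in wild-type tumors over both days, beside the T and B cell genes given above. They were Acvrl1 (1.14 ± 0.19, limma adjusted p = 0.0115), the transcription factor Mef2c (0.73 ± 0.16, adjusted p = 0.0469) and the pericyte proteoglycan Cspg4 (0.91 ± 0.15, adjusted p = 0.00964). The injected line also carried Cspg4, at 332 and 351 normalized counts in MC38 cells. Wild-type tumors held 319 to 537 and those labelled RAG1-/- 196 to 295. The part of tumor cells and of pericytes in the Cspg4 difference was not tested. Acvrl1 was at 157 to 269 normalized counts in wild-type tumors and at 74.5 to 133 in those labelled RAG1-/-. Its partner Eng was at 29.0 to 67.4 and 18.3 to 80.9. At day 23 alone none of the 3 was called (limma adjusted p = 0.0598 for Acvrl1, 0.101 for Mef2c and 0.175 for Cspg4), and none was called over both days on the endothelial scale.

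The orders of the group means show the same in another way. Skin came first for 8 of the 10 genes, and MC38 cells were last for all 10. For Cdh5 the day-13 tumors labelled RAG1-/- came first (224 ± 82.3 normalized counts, SD, n = 3) and for Angpt2 the day-46 wild-type tumors (264 ± 161). Between neighbouring tumor groups in these orders the values overlapped except for Vwf and Flt1. For Vwf, day-46 wild type (94.8 ± 17.4) stood clear of the next group (48.5 ± 15.01). For Flt1, day-46 wild type (429 ± 116) stood clear of day-23 wild type (267 ± 33.4). The Flt1 pair of groups separated in this direction in 7.02% of all genes tested, and the share for the Vwf pair was not counted. The neighbours were picked by these same means, so the gaps carry no test.

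Across the 12 tumors the 10 genes varied together. All 45 pairs had a Pearson r above 0, from 0.12 to 0.85 with a median of 0.52, and the highest was that of Pecam1 and Flt1. Within groups, after removing group means, the median was 0.54. Tek had the lowest median with the others, 0.30, and Cdh5 the highest, 0.68. The points share libraries, depth and tissue sampling, so the values describe these tumors and carry no p. The mean of the 10 genes per tumor ran lowest in the day-23 tumor labelled RAG1-/- replicate 1, which was the lowest tumor for 5 of the 10 genes.

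The genes whose pattern over the 12 tumors was most like the mean of the 10, among 14746 genes ranked by Pearson r, were Adam12 (0.94), Mmrn2 (0.93), Ctgf (0.93), Serpina3n (0.93), Mfap5 (0.92), Gpx3 (0.92), Gpc3 (0.91), Esam (0.91), Cdh13 (0.91) and Robo4 (0.91). Mmrn2, Esam and Robo4 are endothelial genes of the reference list, and Adam12, Ctgf, Mfap5 and Gpc3 are known from stroma. The mean of the 10 also ran with the pericyte and smooth muscle list (r = 0.92), the endothelial reference (0.86) and the fibroblast list (0.81) over the 12 tumors, and less with the leukocyte (0.31) and lymphatic (0.17) lists. For single genes, Cpxm2 was the most alike for Pecam1 (0.97), and Dll4 was among the first 3 for Emcn (0.85). Among the first 3 for Flt1 were Esam (0.91) and Mcam (0.90), which was placed in the pericyte and smooth muscle list but is not confined to mural cells. With 12 points and this many genes ranked, the highest values are picked from many.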

How the data were processed

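QuantSeq 3′ libraries were sequenced on an Ion Proton. Submitters' processing notes name cutadapt, Trimmomatic, STAR, Bowtie2, HTSeq, DESeq2 and mm10; versions, annotation and strand setting are not given in the sources used here. The authors deposited counts divided by DESeq2 size factors, a signal with 1 fixed step per library, from which whole reads were recovered (every value within 0.02 reads). Another 6 columns match no label and were not used. The 10 genes and all lists were chosen with earlier results of these data known; any list gene and the genes most like the 10 could be named.

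Groups came from the labels. Main fits used limma 3.58.1 (R 4.3.3) with trend on log2(normalized count + 1), for genes with a mean of 5 or more, two-sided, at a Benjamini-Hochberg threshold of 0.05. Tumor contrasts shared 1 fit of 12 tumors. Exact permutation tests used scipy 1.17.1. edgeR 4.0.16 and DESeq2 1.42.0 on recovered reads, other scalings, pseudocounts and filters, a replicate block and leaving out each library were alternatives. Scripts were tested on simulated data. Libraries of 5589151 to 26134241 reads set the precision, and intervals cover counting error only. No replicates were duplicates (chi-square per degree of freedom at least 9.03). A marker list is not reported here.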

Additional observations from a re-analysis of the deposited data

How the results depend on the processing

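Under alternatives other than leaving out a library, 938 values of single genes kept their direction and side of the threshold, 22 turned sign, 1 gained a call and 3 lost one, and the number of the 10 genes called stayed within 1.5 times in all 114 such fits. Where a call or sign changed, the cause was not tested. In tumors against skin, Cdh5 turned to 0.089 with upper quartile and 0.18 with total scaling. On the endothelial scale, Eng turned to 0.30 and Flt1 to 0.23 with 9 reference genes, to 0.24 and 0.17 without the genes read in MC38 cells, and Eng to 0.041 without the muscle-rich tumors (both of these chosen after seeing the data). In RAG1-/- labelled tumors, day 23 minus day 13, Emcn turned to -0.0042 (upper quartile), -0.092 (total), -0.10 (edgeR) and -0.085 (DESeq2), Tek to -0.39 (edgeR) and -0.31 (DESeq2), and Kdr to 0.13 without the muscle-rich tumors. Without those tumors the genotype difference over both days turned for Cdh5 (0.094), Emcn (0.25), Flt1 (0.20) and Kdr (0.17), and the late-minus-early difference for Emcn (-0.28), where Tek was 0.23 with edgeR and 0.14 with DESeq2. At day 23, Eng was 0.011 with total scaling. Leaving out 1 library gave 4 to 7 called genes in tumors against skin, 9 to 10 in MC38 cells against skin and 1 to 3 on the endothelial scale, where the lone skin or MC38 library is assumed to vary like the other groups. Signs turned within these ranges: RAG1-/- day 23 minus day 13, Angpt2 -0.18 to 0.65, Emcn -0.40 to 0.39, Eng -1.04 to 0.0054, Tek -0.52 to 1.43 and Vwf -0.32 to 0.43; genotype at day 23, Angpt2 -0.64 to 0.18, Eng -0.51 to 0.54, Flt1 -0.18 to 0.25 and Tek -0.078 to 1.16. Over both days they were Emcn -0.39 to 0.0057, Eng -0.15 to 0.37, Flt1 -0.15 to 0.11, Flt4 -0.11 to 0.43 and Kdr -0.29 to 0.037. They were -0.67 to 0.42 for Tek in wild-type day 46 minus day 23, -1.55 to 0.39 for Tek in the late-minus-early difference and -0.42 to 0.25 for Eng on the endothelial scale. Over all genes, DESeq2 called 239 and edgeR 22 against 41 for genotype at day 23, and DESeq2 283 against 105 over both days. Replicate numbers did not pair the samples (18 pairs with the same number, r -0.24 to 0.25, 4 above 0.1), and a replicate block gave the same counts of called genes, 10, 6 and 10 against MC38 cells, skin and between them, 3 on the endothelial scale and 0 elsewhere. Depth limits Tek most, with 2 to 48 reads a tumor.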
